A study of Mus musculus with 7 samples.

Results

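Collagens are the main structural proteins of the extracellular matrix, and each is a trimer of alpha chains, with a gene for each chain. The family was taken as every row of the gene table whose symbol is Col, a type number, a and a chain number, which gave 44 of 53819 genes. RNA came from the quadriceps, the large thigh muscle, of male C57BL/6J mice labelled wild type. The mice had been injected into a tail vein, when 8 weeks old, with 200 µl of a serotype 8 adeno-associated virus, which reaches mainly the liver, and were killed 54 days later. The vector was AAV8-Alb-IGFBP1 in 3 libraries (AAV8-IGFBP1) and AAV8-Alb-Null in 4 libraries (AAV8-Null). Every mouse thus carried a vector, and IGFBP1 is a secreted protein that binds insulin-like growth factors. Whether every library is from its own mouse is not in the labels, so p-values here cover only the variation among these 7 samples, part of which may be technical.

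Muscle fibres are wrapped in a basement membrane built on a type IV collagen network. Around it lies an interstitial matrix of fibrils of types I, III and V, made mainly by fibroblasts, and of beaded type VI filaments that tie the fibrils to the basement membrane. Tendon, cartilage, vessel walls and nerve sheaths, which a dissected muscle can also hold, carry collagens of their own. The comparison asked which of these collagens differed in muscle between mice that received the IGFBP1 vector and mice that received the Null one.

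Library totals ran from 39927146 to 46197214 counts in AAV8-IGFBP1 and from 38947493 to 51210391 counts in AAV8-Null. Igfbp1, the gene the vector is named for, had 142 to 1425 counts in the AAV8-IGFBP1 libraries, against 8 counts in AAV8-Null replicate 4 and 0 in the other 3 AAV8-Null libraries. The muscle genes Acta1 and Ckm stood at 24134 to 29033 and 17044 to 20510 CPM in AAV8-IGFBP1, and at 23604 to 28381 and 16732 to 19809 CPM in AAV8-Null. CPM is a gene's count per 1000000 counts of its library, with the library total scaled by edgeR's TMM factor. AAV8-IGFBP1 replicate 3 and AAV8-Null replicate 3 lay at opposite ends of the tendon markers, and the results that moved most without them are also given that way.

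In AAV8-IGFBP1 muscle the genes of 2 collagens, Col15a1 and Col5a3, fell, and no collagen gene rose. The other genes of types I, III and V and the type VI genes Col6a1, Col6a2, Col6a3 and Col6a6 had negative log2 fold changes and missed the threshold, and the abundant basement membrane chains Col4a1 and Col4a2 had log2 fold changes of -0.10 and -0.13. Of the 40 collagen genes tested, 2 were lower and 0 higher at an adjusted p under 0.05 (edgeR's quasi-likelihood test, Benjamini-Hochberg over 14935 genes), where 0.194% of all genes tested were lower, 0.388% higher and 0.583% either. At an unadjusted p under 0.05, 14 were lower and 2 higher, where 6.91% and 5.97% of all genes were. The log2 fold change was below 0 in 34 of the 40, against 50.1% of all genes, with a median of -0.54 beside -0.00103 over all genes. All AAV8-IGFBP1 libraries lay below all AAV8-Null libraries for 13 of the 40, and above them for 1, where 6.01% and 6.33% of all genes did so. DESeq2 called 10 collagen genes, all lower, where it called 1.54% of all genes lower and 2.97% in either direction; these 10 included both edgeR calls. The 4 collagen genes that were not tested, Col4a6, Col6a4, Col17a1 and Col25a1, had at most 0.288 CPM in any library.

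**Figure D1:**
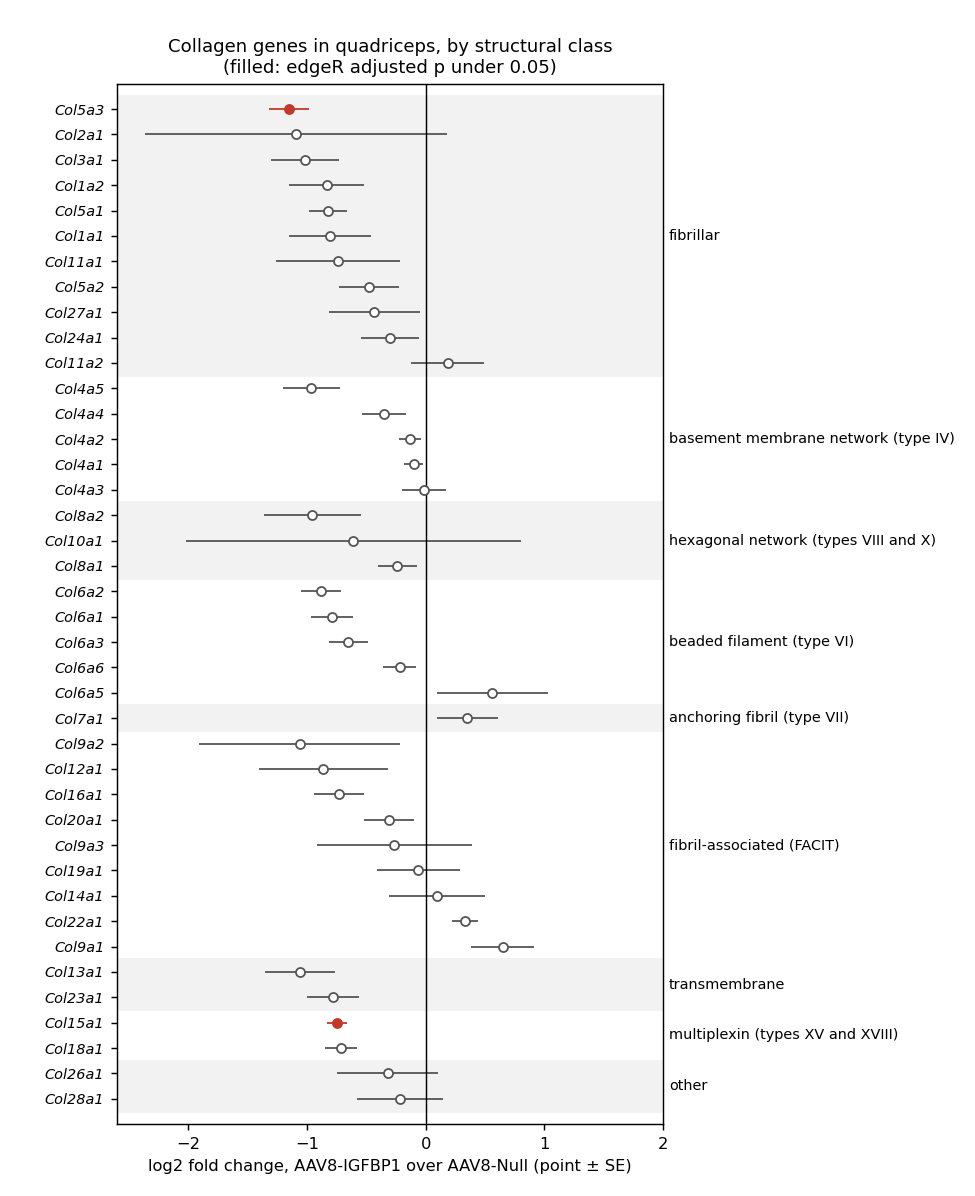
Log2 fold change (AAV8-IGFBP1 over AAV8-Null, point ± SE) of the 40 tested collagen genes, by structural class; filled points passed edgeR's test at an adjusted p under 0.05. Most points lie left of 0, the 2 filled ones are Col5a3 and Col15a1, and Col4a1, Col4a2 and Col4a3 lie close to 0.

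Col15a1 encodes type XV, a collagen of the multiplexin class that sits at the outer face of basement membranes around muscle fibres and capillaries and carries heparan or chondroitin sulfate. It stood at 17.1, 17.8 and 17.0 CPM in AAV8-IGFBP1 replicates 1 to 3, against 27.5, 26.4, 32.9 and 29.6 CPM in AAV8-Null replicates 1 to 4. The groups were far apart and each was tight. Col15a1 fell 1.68-fold (log2 fold change -0.75, SE 0.08, edgeR's adjusted p = 0.00902). It passed without each library in turn, with an edgeR adjusted p of 0.0111 to 0.0467. With the slow fibre level as covariate its log2 fold change was -0.71 and its adjusted p by edgeR 0.0902.

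Col18a1, the other multiplexin and the source of the fragment endostatin, stood at 8.14, 5.54 and 5.91 CPM in AAV8-IGFBP1 and at 10.1, 11.6, 11.2 and 10.0 CPM in AAV8-Null. The groups did not overlap, but the difference missed the threshold (log2 fold change -0.71, SE 0.14, edgeR's adjusted p = 0.0644). It passed with DESeq2 (adjusted p = 0.000492) and without AAV8-IGFBP1 replicate 1, its highest library in that group (edgeR adjusted p = 0.0306).

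Col5a3 encodes the alpha-3 chain of type V, a minor fibrillar collagen that is built into type I fibrils and governs how they start and how thick they grow. It stood at 16.6, 18.1 and 11.9 CPM in AAV8-IGFBP1, against 30.9, 30.7, 42.1 and 34.2 CPM in AAV8-Null. Every AAV8-IGFBP1 library lay below the lowest AAV8-Null library. Col5a3 fell 2.22-fold (log2 fold change -1.15, SE 0.17, edgeR's adjusted p = 0.0369). The call was lost without AAV8-IGFBP1 replicate 1 (edgeR adjusted p = 0.119) or 2 (0.0646), without AAV8-Null replicate 1 (0.0895), 2 (0.0656) or 4 (0.0689), and once slow fibre level was a covariate (0.182), at log2 fold changes of -1.15 to -1.29. It was also lost with the replicate number as a block (edgeR adjusted p = 0.235), at a log2 fold change of -1.15.

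The other type V chains differed by unequal amounts. Col5a1, whose chain is present in nearly all type V trimers, stood at 23.4, 20.7 and 17.4 CPM in AAV8-IGFBP1 and at 30.8, 39.9, 43.7 and 30.4 CPM in AAV8-Null, with no overlap (log2 fold change -0.82, SE 0.16, edgeR's adjusted p = 0.0816; DESeq2 adjusted p = 2.94e-05). Col5a2 overlapped, at 22.5, 19.6 and 12.2 CPM in AAV8-IGFBP1 and at 21.8, 25.1, 33.4 and 20.5 CPM in AAV8-Null (log2 fold change -0.48, SE 0.25, edgeR's adjusted p = 0.494). Within a library, where scaling cancels, Col5a1 had 1.04 to 1.42 counts per Col5a2 count in AAV8-IGFBP1 and 1.31 to 1.59 in AAV8-Null.

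The bulk of the fibrils is made of types III and I. Col3a1, the gene of type III, which forms the thin fibrils of distensible tissue, stood at 128, 109 and 70.2 CPM in AAV8-IGFBP1, against 163, 254, 255 and 157 CPM in AAV8-Null. The groups did not overlap, although the AAV8-Null libraries themselves split into a lower and a higher pair. The difference did not pass edgeR's test (log2 fold change -1.01, SE 0.29, adjusted p = 0.237) and passed DESeq2's (adjusted p = 0.0326).

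Type I, the main tensile collagen, is made of alpha-1 and alpha-2 chains. Col1a1 stood at 101, 98.5 and 50.4 CPM in AAV8-IGFBP1 and at 124, 160, 200 and 99.2 CPM in AAV8-Null. Col1a2 followed it, at 107, 88.5 and 53.8 CPM in AAV8-IGFBP1 and at 130, 166, 196 and 99.6 CPM in AAV8-Null. For both, AAV8-Null replicate 4 fell inside the AAV8-IGFBP1 range, and neither passed the test (log2 fold changes -0.81, SE 0.34, and -0.83, SE 0.32; edgeR adjusted p = 0.406 and 0.360). Without both libraries numbered 3 the log2 fold changes were -0.35 and -0.44.

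The remaining fibrillar genes, Col2a1, Col11a1, Col11a2, Col24a1 and Col27a1, stood at 10.1 CPM or less in every library, overlapped between the groups and had log2 fold changes of -1.09 to 0.18. The 11 fibrillar genes summed to 416, 369 and 225 CPM in AAV8-IGFBP1, against 514, 691, 802 and 453 CPM in AAV8-Null, with no overlap, and their median log2 fold change was -0.81.

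The sequences before the starts of 4 of these genes are shown because Col15a1 and Col5a3 are the genes that fell and Col5a1 and Col3a1 the fibrillar genes whose groups did not overlap without passing the test. Each is the 250 bases before the RefSeq start, 5′ to 3′ on the gene's strand, in build GRCm38.p6, which is not the build of the counts; no annotated exon of GENCODE M21 falls in them. Capitals mark CCAAT (the CCAAT box), TATAAA (the TATA box) and GGGCGG (the GC box, bound by Sp1) on either strand. The Col15a1 window is chr4:47207762-47208011 (+), that of Col5a3 chr9:20815068-20815317 (-), that of Col5a1 chr2:27886175-27886424 (+) and that of Col3a1 chr1:45311288-45311537 (+).
Col15a1: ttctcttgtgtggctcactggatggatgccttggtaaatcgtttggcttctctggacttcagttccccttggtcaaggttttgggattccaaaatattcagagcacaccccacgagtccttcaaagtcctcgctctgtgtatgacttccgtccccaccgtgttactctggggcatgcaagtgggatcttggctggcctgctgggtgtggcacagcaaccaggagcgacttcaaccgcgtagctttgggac
Col5a3: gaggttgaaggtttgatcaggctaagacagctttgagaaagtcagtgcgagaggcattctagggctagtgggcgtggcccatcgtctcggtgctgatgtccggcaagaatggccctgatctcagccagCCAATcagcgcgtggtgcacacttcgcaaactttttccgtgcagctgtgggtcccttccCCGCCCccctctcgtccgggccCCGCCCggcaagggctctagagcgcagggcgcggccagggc
Col5a1: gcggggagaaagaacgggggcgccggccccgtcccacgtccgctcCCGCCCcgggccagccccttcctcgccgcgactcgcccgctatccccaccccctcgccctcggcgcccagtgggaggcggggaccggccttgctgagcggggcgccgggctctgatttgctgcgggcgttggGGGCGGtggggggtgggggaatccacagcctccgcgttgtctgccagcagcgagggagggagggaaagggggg
Col3a1: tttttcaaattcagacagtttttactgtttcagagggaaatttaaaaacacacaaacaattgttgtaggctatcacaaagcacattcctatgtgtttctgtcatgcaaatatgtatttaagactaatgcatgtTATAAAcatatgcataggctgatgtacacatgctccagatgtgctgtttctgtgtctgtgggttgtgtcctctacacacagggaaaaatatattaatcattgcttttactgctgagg

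The Col15a1 window held none of the 3 motifs, and the Col3a1 window held only a TATAAA, whose first base lies at -117 from the start. The Col5a3 window held a CCAAT at -122 and reverse-strand GC boxes at -63 and -41, and the Col5a1 window held GC boxes at -205 and -73. With none in the Col15a1 window, the 2 genes that fell could share none of these motifs. Of the 44 collagen genes, 35 matched the RefSeq table, with 38 windows. A CCAAT box was in 34.2% of collagen windows and 33.8% of all 32851 windows, a TATA box in 13.2% and 12.4%, and a GC box in 57.9% and 32.7%. In these 4 windows the motifs did not overlap each other.

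Type VI collagen, whose loss causes Bethlem myopathy and Ullrich muscular dystrophy in humans, is built from the alpha-1, alpha-2 and alpha-3 chains in equal parts. Col6a2 stood at 41.1, 34.7 and 26.8 CPM in AAV8-IGFBP1, against 55.1, 65.6, 75.8 and 55.6 CPM in AAV8-Null (log2 fold change -0.88, SE 0.17, edgeR's adjusted p = 0.0820). Col6a1 stood at 42.3, 36.5 and 27.4 CPM in AAV8-IGFBP1, against 52.6, 61.4, 76.2 and 54.7 CPM in AAV8-Null (log2 fold change -0.79, SE 0.18, edgeR's adjusted p = 0.135). Col6a3 stood at 35.4, 29.4 and 26.4 CPM in AAV8-IGFBP1, against 41.6, 44.4, 62.5 and 42.6 CPM in AAV8-Null (log2 fold change -0.65, SE 0.17, edgeR's adjusted p = 0.175).

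For all 3 chains the groups did not overlap, replicate 3 was the lowest AAV8-IGFBP1 library and replicate 3 the highest AAV8-Null library. None passed edgeR's test and all 3 passed DESeq2's (adjusted p 5.09e-06, 0.000181 and 0.00303 for Col6a2, Col6a1 and Col6a3). With the tenocyte marker level as covariate, Col6a2 and Col6a1 passed edgeR's test (adjusted p = 0.0120 and 0.0200), at log2 fold changes of -0.71 and -0.61. In that fit 67 of all 14935 genes passed.

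Col6a6 and Col6a5 encode chains that can replace alpha-3. Col6a6 stood at 4.75, 5.42 and 4.12 CPM in AAV8-IGFBP1 and at 4.91, 6.07, 6.20 and 4.99 CPM in AAV8-Null (log2 fold change -0.22, SE 0.14, edgeR's adjusted p = 0.560), and its log2 fold change was -0.12 without AAV8-IGFBP1 replicate 3. Col6a5 stood at 0.239, 0.314 and 0.310 CPM in AAV8-IGFBP1 and at 0.0795, 0.174, 0.367 and 0.195 CPM in AAV8-Null (log2 fold change 0.56, SE 0.47, edgeR's adjusted p = 0.674), and its log2 fold change was 0.27 without AAV8-Null replicate 1 and 0.95 without AAV8-Null replicate 3. The groups overlapped for both genes.

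**Figure D2:**
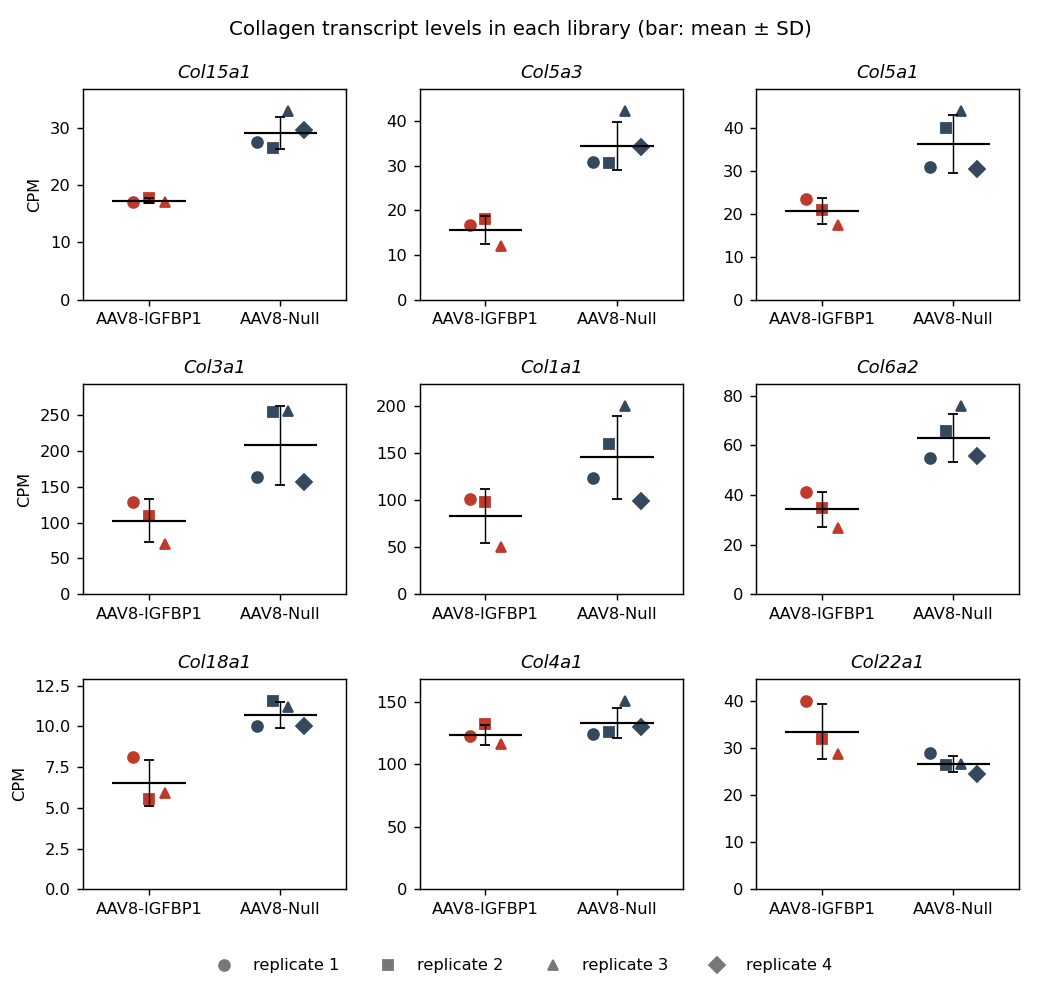
CPM in each library of 9 collagen genes, AAV8-IGFBP1 left and AAV8-Null right, with the mean ± SD as bars and the replicate number as the symbol. Col15a1, Col5a3, Col5a1, Col3a1, Col6a2 and Col18a1 do not overlap between the groups, Col1a1, Col4a1 and Col22a1 do.

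The type IV network is the scaffold of basement membranes, and its common form joins alpha-1 with alpha-2 chains. Col4a1 stood at 123, 132 and 116 CPM in AAV8-IGFBP1, against 124, 126, 150 and 130 CPM in AAV8-Null (log2 fold change -0.10, SE 0.08, edgeR's adjusted p = 0.654). Col4a2 stood at 99.7, 102 and 93.1 CPM in AAV8-IGFBP1, against 95.9, 98.1, 125 and 112 CPM in AAV8-Null (log2 fold change -0.13, SE 0.09, edgeR's adjusted p = 0.624). Both overlapped between the groups, and AAV8-Null replicate 3, the highest library for each, moved both values: without it their log2 fold changes were -0.03 and -0.05. Without AAV8-IGFBP1 replicate 3 that of Col4a1 was -0.06. The SE of Col4a1 was the smallest of the 40 tested collagen genes. The genes lie head to head on chromosome 8, with RefSeq starts 21 bases apart.

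The minor type IV chains were measured at under 3 CPM. Col4a5, whose chain occurs with alpha-3 and alpha-4 or alpha-6 in specialised basement membranes, stood at 0.760, 1.33 and 0.819 CPM in AAV8-IGFBP1, against 1.85, 2.09, 2.09 and 1.46 CPM in AAV8-Null. The groups did not overlap, by a small margin, and the difference did not pass edgeR's test (log2 fold change -0.96, SE 0.24, adjusted p = 0.136; DESeq2 adjusted p = 0.0360). Col4a3 stood at 1.39, 1.96 and 1.82 CPM in AAV8-IGFBP1 and at 1.51, 2.03, 1.73 and 1.65 CPM in AAV8-Null (log2 fold change -0.02, SE 0.19, edgeR's adjusted p = 0.984). Col4a4 stood at 2.15, 1.93 and 1.39 CPM in AAV8-IGFBP1 and at 2.28, 1.99, 2.696 and 2.41 CPM in AAV8-Null (log2 fold change -0.35, SE 0.19, edgeR's adjusted p = 0.486), and its log2 fold change was -0.19 without AAV8-IGFBP1 replicate 3. Both overlapped between the groups.

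Per kilobase of the longest coding transcript, the scale on which genes can be compared, the order of the chains differed between the groups. In AAV8-IGFBP1 the mean level was highest for Col4a1 and Col3a1, at 18.7 and 18.4 CPM per kilobase, followed by Col1a2 (15.5), Col4a2 (15.3) and Col1a1 (14.1), then Col6a1 (8.63) and Col6a2 (7.35). In AAV8-Null the order was Col3a1 (37.3 CPM per kilobase), Col1a2 (27.7), Col1a1 (24.6), Col4a1 (20.04), Col4a2 (16.7), Col6a1 (14.9) and Col6a2 (13.5). The ranges over libraries of all neighbours in both orders overlapped.

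Ratios of counts within a library need no scaling between libraries. Col3a1 had 1.05, 0.827 and 0.605 counts per Col4a1 count in AAV8-IGFBP1, against 1.31, 2.02, 1.70 and 1.21 in AAV8-Null. Col6a1 had 0.345, 0.277 and 0.236 per Col4a1 count in AAV8-IGFBP1, against 0.423, 0.488, 0.507 and 0.421 in AAV8-Null. Col15a1 had 0.139, 0.135 and 0.147 per Col4a1 count in AAV8-IGFBP1, against 0.221, 0.210, 0.219 and 0.228 in AAV8-Null. None of these 3 ratios overlapped between the groups, and the Col15a1 ratio spread least. These ratios were chosen with the fold changes known and carry no test.

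Ratios between chains that assemble together were also read. Col1a1 had 0.947, 1.11 and 0.937 counts per Col1a2 count in AAV8-IGFBP1 and 0.951 to 1.02 in AAV8-Null. Col4a1 had 1.23 to 1.29 per Col4a2 count in AAV8-IGFBP1 and 1.16 to 1.30 in AAV8-Null. Col4a3 had 0.646, 1.01 and 1.30 per Col4a4 count in AAV8-IGFBP1 and 0.641 to 1.02 in AAV8-Null. Col6a1 had 1.02 to 1.05 per Col6a2 count in AAV8-IGFBP1 and 0.936 to 1.01 in AAV8-Null, without overlap. Col15a1 and Col18a1, which do not assemble together, had a ratio of 2.73 ± 0.574 in AAV8-IGFBP1 and 2.73 ± 0.310 in AAV8-Null (SD, n = 3 and 4).

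**Figure D3:**
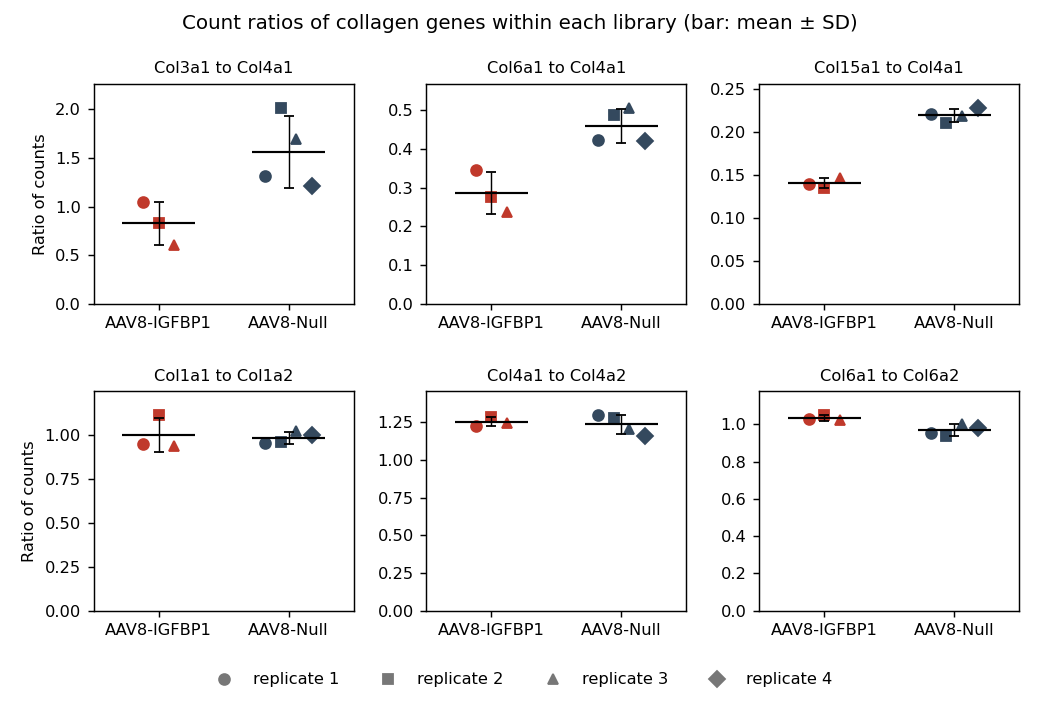
Ratios of counts of 2 collagen genes within each library, AAV8-IGFBP1 left and AAV8-Null right, with mean ± SD. The ratios of Col3a1, Col6a1 and Col15a1 to Col4a1 do not overlap between the groups; those of Col1a1 to Col1a2 and Col4a1 to Col4a2 do, and that of Col6a1 to Col6a2 is slightly higher in AAV8-IGFBP1.

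Fibril-associated collagens, which coat fibrils or anchor them to other matrix, went both ways, and none of the 9 tested passed edgeR's test. Col22a1, found at the junction of muscle and tendon, stood at 39.9, 31.8 and 28.6 CPM in AAV8-IGFBP1 and at 28.8, 26.4, 26.5 and 24.5 CPM in AAV8-Null. AAV8-IGFBP1 replicate 3 lay just inside the AAV8-Null range (log2 fold change 0.33, SE 0.11, edgeR's adjusted p = 0.253), and the log2 fold change was 0.19 without AAV8-IGFBP1 replicate 1. Col12a1, a collagen of tendon and of muscle under load, stood at 6.47, 4.35 and 2.17 CPM in AAV8-IGFBP1 and at 7.15, 4.19, 14.6 and 6.06 CPM in AAV8-Null (log2 fold change -0.86, SE 0.54, edgeR's adjusted p = 0.580). Here AAV8-Null replicate 3 stood well above the other 6 libraries. The log2 fold change of Col12a1 was -0.42 without that library, -0.54 without AAV8-IGFBP1 replicate 3 and -0.09 without both.

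Col16a1, a further fibril-associated gene, stood at 3.10, 2.83 and 1.75 CPM in AAV8-IGFBP1, against 3.91, 4.62, 4.97 and 3.48 CPM in AAV8-Null, with no overlap (log2 fold change -0.73, SE 0.21, edgeR's adjusted p = 0.186; DESeq2 adjusted p = 0.0495). Col9a1 was the only tested collagen gene whose AAV8-IGFBP1 libraries, at 0.629, 0.750 and 0.885 CPM, all lay above those of AAV8-Null, at 0.397, 0.599, 0.524 and 0.389 CPM (log2 fold change 0.65, SE 0.27, edgeR's adjusted p = 0.353). Col20a1 lay below by a narrow margin, at 1.13, 1.11 and 1.15 CPM in AAV8-IGFBP1 and at 1.51, 1.18, 1.15 and 1.78 CPM in AAV8-Null (log2 fold change -0.31, SE 0.21, edgeR's adjusted p = 0.592; -0.19 without AAV8-Null replicate 4). Col9a2, Col9a3, Col14a1 and Col19a1 overlapped, with log2 fold changes of -1.06 to 0.10. The median of the class was -0.26, and it was 0.17 without AAV8-Null replicate 3, 0.36 without both libraries numbered 3 and 0.14 with the tenocyte marker level as covariate.

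Of the 4 transmembrane collagens, which are anchored in the cell surface, 2 were tested. Both of these were lower without overlap, where 6.01% of all genes were, and neither passed edgeR's test. Col13a1, whose protein helps build the neuromuscular junction, stood at 0.391, 0.508 and 0.576 CPM in AAV8-IGFBP1, against 1.33, 0.889, 1.13 and 0.730 CPM in AAV8-Null (log2 fold change -1.06, SE 0.29, edgeR's adjusted p = 0.177). Col23a1 stood at 0.651, 0.774 and 0.598 CPM in AAV8-IGFBP1, against 1.13, 1.04, 1.41 and 1.07 CPM in AAV8-Null (log2 fold change -0.78, SE 0.22, edgeR's adjusted p = 0.183). Each rested on 18 to 67 counts per library.

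Col7a1, the collagen of the fibrils that anchor epithelial basement membranes, overlapped, at 20.9, 25.7 and 30.9 CPM in AAV8-IGFBP1 and at 20.1, 12.5, 26.0 and 22.8 CPM in AAV8-Null (log2 fold change 0.35, SE 0.25, edgeR's adjusted p = 0.631). The log2 fold change of Col7a1 was 0.20 when AAV8-IGFBP1 replicate 3 was left out and 0.18 when AAV8-Null replicate 2 was. Of the network collagens of type VIII, found in vessel walls, Col8a2 stood at 1.61, 1.26 and 0.553 CPM in AAV8-IGFBP1 and at 2.15, 1.89, 3.56 and 1.34 CPM in AAV8-Null (log2 fold change -0.95, SE 0.41, edgeR's adjusted p = 0.382). The groups overlapped, and the log2 fold change was -0.62 without AAV8-IGFBP1 replicate 3 and -0.33 without both libraries numbered 3. Col8a1 overlapped between the groups at 2.08, 2.22 and 2.21 CPM in AAV8-IGFBP1 and at 2.38, 2.15, 3.12 and 2.701 CPM in AAV8-Null (log2 fold change -0.24, SE 0.16, edgeR's adjusted p = 0.596; -0.14 without AAV8-Null replicate 3). Col26a1 and Col28a1, which fit none of these classes, lay at 0.715 CPM or less in every library (log2 fold changes -0.32 and -0.22). Col28a1 stood at 0.651, 0.242 and 0.553 CPM in AAV8-IGFBP1 and at 0.715, 0.406, 0.681 and 0.487 CPM in AAV8-Null, with overlap.

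Among the collagens of cartilage, Col2a1 and Col10a1 overlapped between the groups over wide ranges, while Col9a1, described above, did not overlap. Col2a1, the fibrillar collagen of cartilage, stood at 4.69, 0.991 and 0.111 CPM in AAV8-IGFBP1 and at 0.993, 5.33, 10.1 and 0.657 CPM in AAV8-Null. Col10a1, made by hypertrophic chondrocytes, stood at 1.80, 0.0967 and 0 CPM in AAV8-IGFBP1 (0 counts allow up to 0.0664 CPM, from counting error alone) and at 0.159, 0.928, 2.98 and 0.170 CPM in AAV8-Null. AAV8-IGFBP1 replicate 1 and AAV8-Null replicates 2 and 3 were the high libraries for both. The cartilage proteoglycan gene Acan was highest in the same 3, at 1.58 CPM in AAV8-IGFBP1 replicate 1 and at 0.425 and 2.04 CPM in AAV8-Null replicates 2 and 3, and at 0.0443 to 0.218 CPM in the other 4. Of the 8 chondrocyte markers listed, 4 were tested, 3 of these had negative log2 fold changes, 0 passed edgeR's test and the median was -0.51. The 8 summed to 5.22 to 36.7 CPM in AAV8-IGFBP1 and 11.6 to 50.3 CPM in AAV8-Null. The cartilage transcription factor gene Sox9 stood at 1.80, 2.06 and 1.99 CPM in AAV8-IGFBP1, below the 2.19 to 5.16 CPM of AAV8-Null (log2 fold change -0.65, edgeR adjusted p = 0.425), and Matn1, a defining cartilage gene, was at 0 in all 7 libraries. The part of cartilage in these values was not tested. None of the 7 genes of types II, IX, X and XI passed edgeR's test (log2 fold changes -1.09 to 0.65).

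Markers of tenocytes, the cells of tendon, were set beside the collagens. The list held 14 genes and no collagen, all 14 were tested, and 0 passed edgeR's or DESeq2's test. At an unadjusted p under 0.05, 1 was lower and 1 higher, where 6.91% and 5.97% of all genes were. Of the 14, 11 had negative log2 fold changes, where 50.1% of all genes did. Only 1, Tnmd, lay lower without overlap (log2 fold change -1.01, edgeR adjusted p = 0.414), where 6.01% of all genes did. The median over the 14 was -0.41. Their mean log2 CPM, centred over the 7 libraries, was 0.56, -0.20 and -1.16 in AAV8-IGFBP1 replicates 1 to 3 and 0.07, 0.11, 0.85 and -0.22 in AAV8-Null replicates 1 to 4. Their summed level was 186 to 544 CPM in AAV8-IGFBP1 and 255 to 590 CPM in AAV8-Null. The fibrillar collagens had their lowest sum, 225 CPM, in AAV8-IGFBP1 replicate 3 and their highest, 802 CPM, in AAV8-Null replicate 3, the libraries with the lowest and highest tenocyte level.

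AAV8-IGFBP1 replicate 1 had a higher mean tenocyte level than 3 of the 4 AAV8-Null libraries, but not every marker was high in it. Its Tnmd stood at 3.43 CPM, below the 3.48 to 6.94 CPM of AAV8-Null. Its Scx stood at 3.56 CPM, against 2.98 to 4.42 CPM in AAV8-Null. AAV8-IGFBP1 replicate 1 lay below all 4 AAV8-Null libraries for Col15a1, Col5a3, Col5a1, Col3a1, Col6a1, Col6a2 and Col6a3. Each of these genes was lower without overlap, so that order holds by definition and is no test of tendon content. The Col12a1 and Col1a1 levels of AAV8-IGFBP1 replicate 1 lay within the AAV8-Null range. Without both libraries numbered 3, Col15a1 and Col5a3 were called (edgeR adjusted p = 0.0347 and 0.0221; log2 fold changes -0.67 and -0.88), but the median over the collagen genes was -0.14. The fibrillar median, -0.81 with all libraries, was -0.53 without AAV8-IGFBP1 replicate 3, -0.31 without AAV8-Null replicate 3, -0.18 without both and -0.48 with the tenocyte level as covariate. The type VI median was -0.65 with all libraries, -0.49 without AAV8-Null replicate 3, -0.40 without both libraries numbered 3 and -0.48 with that covariate. The part of tendon in the collagen values was not tested.

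**Figure D4:**
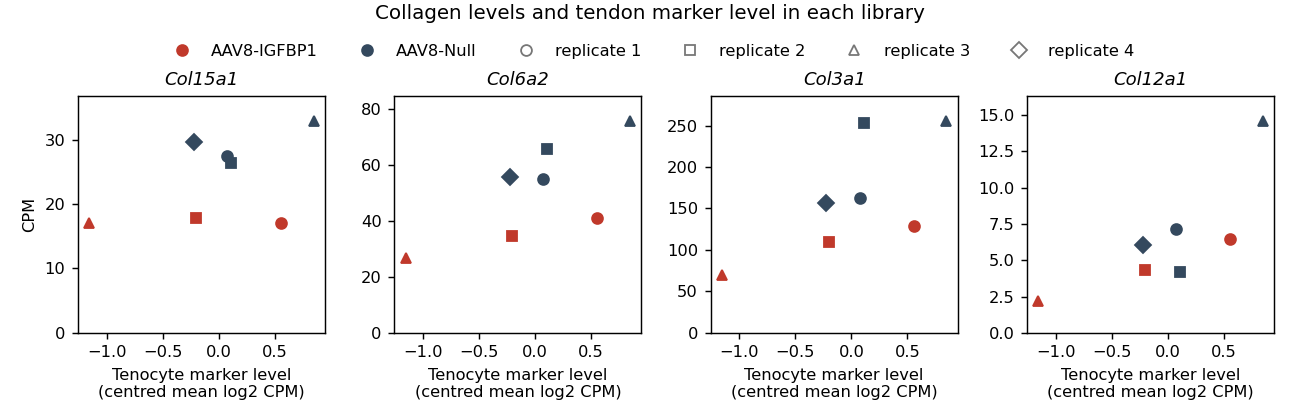
CPM of 4 collagen genes against the tenocyte marker level of the same library (mean log2 CPM of 14 markers, centred). AAV8-IGFBP1 libraries lie below AAV8-Null libraries for Col15a1, Col6a2 and Col3a1, and Col12a1 overlaps between the groups. Within each group Col3a1, Col6a2 and Col12a1 are highest where the tenocyte level is highest. In AAV8-IGFBP1 Col15a1 stays at 17.0 to 17.8 CPM at tenocyte levels from -1.16 to 0.56.

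Other cell types that make collagen were read the same way. In bulk RNA, fewer cells of a type and less RNA per cell cannot be told apart. Over all genes, 6.91% were lower and 5.97% higher at an unadjusted p under 0.05. Groups did not overlap for 6.01% lower and 6.33% higher, and DESeq2 called 1.54% lower and 2.97% in either direction. The list counts here and below stand beside these shares. Of 19 fibroblast and fibro-adipogenic progenitor markers, 15 had negative log2 fold changes, 0 passed edgeR's test, 7 were lower at an unadjusted p under 0.05, 4 had no overlap between the groups, all lower in AAV8-IGFBP1, and the median was -0.27. These 4 were Pi16 (log2 fold change -0.82, edgeR adjusted p = 0.0644), Smoc2 (-0.60, 0.115), Gsn (-0.47, 0.337) and Cd55 (-0.23, 0.344), and DESeq2 called Pi16 and Smoc2 (adjusted p = 3.31e-05 and 0.000991). The 19 summed to 667 to 1019 CPM in AAV8-IGFBP1 and 957 to 1243 CPM in AAV8-Null, and most of that sum was Gsn and Dcn. Gsn stood at 305 to 488 CPM in AAV8-IGFBP1 and 511 to 647 CPM in AAV8-Null, and Dcn at 136 to 248 and 166 to 252 CPM. The defining marker Pdgfra stood at 11.1 to 15.5 CPM in AAV8-IGFBP1 and 12.1 to 20.1 CPM in AAV8-Null (log2 fold change -0.08), and Ly6a had a log2 fold change of 0.05. Among 13 markers of smooth muscle cells and pericytes, the actin-binding gene Tagln fell (log2 fold change -1.10, edgeR adjusted p = 0.00985) and the median was -0.10. Of the 13, 9 had negative and 4 positive log2 fold changes. At an unadjusted p under 0.05, 5 of the 13 were lower and 1 higher. Without overlap 3 lay lower and 1 higher, and DESeq2 called 4 lower. The higher gene was Abcc9 in both counts (log2 fold change 0.15, edgeR adjusted p = 0.346). The other positive log2 fold changes were those of Cspg4 (0.17), Kcnj8 (0.14) and Lmod1 (0.11). The smooth muscle actin gene Acta2 had a fold change of -1.20 on the log2 scale (edgeR's adjusted p = 0.0764, DESeq2 adjusted p = 1.7e-07), Cnn1 of -1.10 (edgeR's adjusted p = 0.353), Myh11 of -0.64 (0.285) and Notch3 of -0.36 (0.136), and DESeq2 also called Myh11 (adjusted p = 0.0288) and Notch3 (0.0403). The list summed to 554 to 583 CPM in AAV8-IGFBP1 and 550 to 635 CPM in AAV8-Null, and most of that sum was Rgs5, at 160 to 176 CPM in AAV8-IGFBP1 and 147 to 203 CPM in AAV8-Null, and Abcc9, at 235 to 255 CPM in AAV8-IGFBP1 and 209 to 231 CPM in AAV8-Null. The part of these cells in the collagen values was not tested.

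Of 13 endothelial markers 0 passed edgeR's test, 1 was lower at an unadjusted p under 0.05 and DESeq2 called 0 (median -0.04), with a sum of 288 to 304 CPM in AAV8-IGFBP1 and 284 to 349 CPM in AAV8-Null. Of 11 Schwann cell markers tested 0 passed edgeR's test, 3 were lower at an unadjusted p under 0.05, 3 lay lower without overlap and DESeq2 called 2 lower. They summed to 39.6 to 46.1 CPM in AAV8-IGFBP1, below the 55.2 to 66.8 CPM of AAV8-Null (median log2 fold change -0.27). The width of that gap depends on Egr2, which made up 11.5 of the 57.3 CPM of AAV8-Null replicate 2. Egr2 was far lower elsewhere: 1.99, 1.70 and 0.681 CPM for AAV8-Null replicates 1, 3 and 4, and 0.434, 0.411 and 0.620 CPM for AAV8-IGFBP1 replicates 1 to 3. Adipocyte markers had a median of 1.01. Of the 12, 0 passed edgeR's test, 2 were higher at an unadjusted p under 0.05 and DESeq2 called 1, Car3, higher. They summed to 1741 to 3698 CPM in AAV8-IGFBP1, with replicate 2 highest, and 1569 to 1921 CPM in AAV8-Null. Most of that sum was Car3 and Lpl. Car3 stood at 899 to 1702 CPM in AAV8-IGFBP1 and 644 to 897 CPM in AAV8-Null, and Lpl at 398 to 609 and 420 to 760 CPM. Adipoq was high in AAV8-IGFBP1 replicate 2 only, at 33.9, 110 and 22.2 CPM in AAV8-IGFBP1 and 13.6 to 34.3 CPM in AAV8-Null. Of 11 satellite cell markers tested 1, Sdc4, fell (by 0.99 on the log2 scale, edgeR adjusted p = 0.0167). At an unadjusted p under 0.05, 6 were lower and 1 higher, and without overlap 5 lay lower and 1 higher. The higher gene was Cdh15 in both counts (log2 fold change 0.22, edgeR adjusted p = 0.286). Cdh15 stood at 20.4 to 24.1 CPM in AAV8-IGFBP1 and 17.8 to 19.8 CPM in AAV8-Null. DESeq2 called 3 lower: Sdc4, Pax7 (log2 fold change -0.93, edgeR adjusted p = 0.0637) and Fgfr4 (-1.10, 0.0670). Over all genes these shares were 6.91%, 5.97%, 6.01%, 6.33% and 1.54%. The median of the satellite cell markers was -0.39, and they summed to 61.1 to 72.6 CPM in AAV8-IGFBP1 and 77.8 to 94.8 CPM in AAV8-Null. Macrophage markers (0 of 12 passed edgeR's test, 0 at an unadjusted p under 0.05 and 0 by DESeq2; median -0.07) summed to 62.8 to 117 CPM in AAV8-IGFBP1 and 74.6 to 120 CPM in AAV8-Null.

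Slow fibre genes had a median log2 fold change of -1.44, and 0 of 11 passed edgeR's test. At an unadjusted p under 0.05, 6 were lower, where 6.91% of all genes were. DESeq2 called 1 lower, where it called 1.54% of all genes lower. The slow fibre level was -1.36, -0.63 and -0.09 in AAV8-IGFBP1 and 1.11, -0.36, 0.42 and 0.90 in AAV8-Null. With that level as covariate the collagen median was -0.89, and Col3a1, Col5a1 and Col6a2 passed edgeR's test (adjusted p = 0.0457, 0.0353 and 0.0467) while Col15a1 and Col5a3 did not. Fast fibre genes had a median of 0.03. What part slow fibre content has in the collagen values was not tested.

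In 7 lists of genes that make, cross-link, bind, degrade or regulate collagen, 0 members passed edgeR's test. Over all genes, 6.91% were lower and 5.97% higher at an unadjusted p under 0.05, and DESeq2 called 1.54% lower and 2.97% in either direction. The counts for these 7 lists stand beside those shares. For synthesis and folding, 19 of 25 tested genes had negative log2 fold changes (median -0.09), 4 had an unadjusted p under 0.05 and DESeq2 called 2, all lower. P4ha2, a subunit of the prolyl 4-hydroxylase that stabilises the triple helix, averaged 22.0 ± 1.61 CPM in AAV8-IGFBP1 and 27.6 ± 1.98 CPM in AAV8-Null (SD, n = 3 and 4), with a log2 fold change of -0.33 and an edgeR adjusted p of 0.126. Creb3l1, a transcription factor of collagen secretion, and Serpinh1, the collagen chaperone HSP47, had log2 fold changes of -0.96 and -0.79 (edgeR adjusted p = 0.223 and 0.337). Mia3, which loads procollagen into transport carriers and was the most abundant member, had -0.08. Serpinh1 averaged 43.3 ± 3.97 CPM in AAV8-IGFBP1 and 75.0 ± 25.2 CPM in AAV8-Null (SD, n = 3 and 4), with a wide spread in AAV8-Null.

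For processing and cross-linking, 9 of 14 were below 0 (median -0.19), 2 had an unadjusted p under 0.05 and DESeq2 called 1, all lower. Bmp1, the protease that trims the C-propeptide of fibrillar procollagens, averaged 9.01 ± 1.13 CPM in AAV8-IGFBP1 and 13.1 ± 1.82 CPM in AAV8-Null (SD, n = 3 and 4; log2 fold change -0.53, edgeR adjusted p = 0.120), and the cross-linking enzyme genes Loxl2 and Tgm2, the most abundant, had -0.59 (0.360) and 0.03 (0.943). Of 27 fibril-associated proteoglycans and glycoproteins, 0 had an unadjusted p under 0.05, where 12.9% of all genes did. Dcn, which encodes decorin and was the most abundant of them in AAV8-Null, averaged 185 ± 57.0 CPM in AAV8-IGFBP1 and 199 ± 39.3 CPM in AAV8-Null (SD, n = 3 and 4; log2 fold change -0.10, edgeR adjusted p = 0.902). Dcn, whose protein binds type I fibrils, overlapped between the groups, and DESeq2 called 0 of this list.

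Basement membrane partners went both ways (9 of 17 below 0, median -0.04), with 3 lower and 1 higher at an unadjusted p under 0.05 and 1 lower and 1 higher by DESeq2. Lamb2, a laminin chain gene of the neuromuscular junction and muscle basement membrane, averaged 137 ± 8.47 CPM in AAV8-IGFBP1 and 110 ± 8.48 CPM in AAV8-Null (SD, n = 3 and 4; log2 fold change 0.31, edgeR adjusted p = 0.120). Nid1, which links laminin to type IV collagen, averaged 42.6 ± 6.27 CPM in AAV8-IGFBP1 and 55.0 ± 7.49 CPM in AAV8-Null (log2 fold change -0.37, edgeR adjusted p = 0.289), and the matrix protein gene Smoc2 had -0.60 (0.115). The perlecan gene Hspg2, the most abundant member, had -0.04 (0.929).

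Among 12 tested collagen receptors, Ddr1 and Mrc2 had the lowest p, in opposite directions, and were the 2 at an unadjusted p under 0.05 and the 2 that DESeq2 called. Ddr1, a receptor tyrosine kinase activated by collagen, averaged 16.03 ± 1.88 CPM in AAV8-IGFBP1 and 12.1 ± 0.857 CPM in AAV8-Null (SD, n = 3 and 4; log2 fold change 0.40, edgeR adjusted p = 0.126). Mrc2, the receptor for uptake of collagen fragments, averaged 6.21 ± 0.493 CPM in AAV8-IGFBP1 and 8.98 ± 1.59 CPM in AAV8-Null (log2 fold change -0.53, edgeR adjusted p = 0.168), and the integrin subunit gene Itgb1 had -0.00420 (0.988). In collagen degradation (18 tested, median 0.02; 3 lower at an unadjusted p under 0.05, 1 by DESeq2), the gelatinase gene Mmp2 had -0.63 (0.236), the stromelysin gene Mmp3 -1.28 (0.350), the inhibitor gene Timp2 -0.42 (0.351) and Ctsb, the most abundant, 0.06 (0.814). In TGF-beta signalling (23 tested, median -0.06; 3 lower and 2 higher at an unadjusted p under 0.05, 1 and 1 by DESeq2), Tgfb3 had 0.37 (0.0588), Tgfb2 -0.42 (0.126) and the signal transducer gene Smad3 -0.26 (0.289), each value a log2 fold change with its edgeR adjusted p.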

How the data were processed

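RNA of quadriceps muscle was sequenced in 3 AAV8-IGFBP1 and 4 AAV8-Null libraries. The authors deposited estimated counts per gene. The submitters' processing notes name genome build GRCm39 and, among the tools, STAR 2.7.9a, Salmon 1.10.1, Trim Galore 0.6.7 and cutadapt 3.4. Annotation release and strand setting are not given in the sources used here. Reads of overlapping or antisense genes may be mixed.

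Estimated counts were rounded to integers for the tests. Genes were kept with edgeR's filterByExpr (minimum count 10, minimum total 15), which left 14935, scaled by TMM and tested with glmQLFit (robust) and glmQLFTest, with Benjamini-Hochberg adjustment over all of them (R 4.3.3, edgeR 4.0.16; limma 3.58.1 and DESeq2 1.42.0 as alternatives). Code was tested on simulated data. Libraries held 38947493 to 51210391 counts, so 3 counts, the limit a count of 0 allows, equalled 0.0580 to 0.0785 CPM; such limits cover counting error only. Replicates of a group were not repeats of 1 library (chi-square of their counts 22.2 to 60.0 for each degree of freedom).

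The members, classes and lists were chosen with earlier results of these data known. Values in every library are given for collagen genes past the threshold, with an unadjusted p under 0.05 or with groups that did not overlap, for the tested chains of types I, III, IV, VI, XII, XV and XVIII, and for the highest gene of each class; from other lists, up to 3 genes of lowest p and the most abundant. Lengths came from GENCODE M21 and promoter windows and start sites from RefSeq, both on GRCm38 and not on the build of the counts.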

Additional observations from a re-analysis of the deposited data

Results flagged for a closer look

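Among 50 collagen values and class sums tested for a library far from the rest of its group, 3 stood out, all in AAV8-Null replicate 3, the library with the highest tenocyte level. Chance flags about 1 in 20 groups, so about this many flags among 50 values can arise by chance. Class sums repeat their members, so the 50 values are not independent. Col6a3 stood at 62.5 CPM there, against 41.6 to 44.4 CPM in AAV8-Null replicates 1, 2 and 4. Col11a2 stood at 8.27 CPM, against 3.46 to 4.28 CPM in AAV8-Null replicates 1, 2 and 4. The summed level of the type VIII and X genes was 9.66 CPM, against 4.21 to 4.97 CPM in AAV8-Null replicates 1, 2 and 4. Groups of 3 libraries were not examined in this way.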

How the results depend on the processing

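Over all genes 87 passed; the count was 437 with DESeq2, 157 with no count filter, 212 at an adjusted p under 0.1, 26 with the slow fibre level as covariate, 39 without both libraries numbered 3, and 14 to 79 when each library was left out in turn. Of the collagen genes 2 passed; the count was 10 with DESeq2, 5 with the tenocyte level as covariate, 5 at an adjusted p under 0.1, and 1 to 2 without each library in turn. The causes were not tested. The collagen median of -0.54 became -0.14 when both libraries numbered 3 were left out, -0.29 adjusting for tenocyte level, -0.89 adjusting for slow fibre level and -0.76 to -0.31 without each library in turn, and stayed below 0 throughout these.

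Values near 0 changed sign: Col4a1 was 0.00691 without both libraries numbered 3, Col4a3 was 0.12 without AAV8-IGFBP1 replicate 1 and 0.08 without AAV8-Null replicate 2 (range without each library -0.11 to 0.12), and Col28a1 was 0.0845 without AAV8-IGFBP1 replicate 2 (range -0.49 to 0.0845), all log2 fold changes. Replicate numbers did not pair the libraries: same-numbered libraries correlated in their deviations at -0.0984, 0.0682 and -0.0574, and AAV8-Null replicate 2 alone of these 6 libraries correlated best with its own number. With the replicate block 4 genes passed in all and 0 collagen genes, with a collagen median of -0.65. The older edgeR quasi-likelihood method was added after seeing the data, and gave 83 genes and 2 collagen genes. Collagens under about 1 CPM rest on few counts, so differences there are the least certain.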
